A study of Mus musculus with 6 samples.

Results

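The ATP-binding cassette (ABC) transporters are membrane proteins that use ATP to move lipids, sterols, peptides, metals, drugs and conjugated metabolites across the plasma membrane or the membranes of organelles. The genes described here are the 41 rows of the gene table whose symbol begins with Abca, Abcb, Abcc, Abcd or Abcg followed by a digit, of 18493 rows in all. They divide into 13 genes of subfamily A, 9 of B, 9 of C, 4 of D and 6 of G. The rule takes the symbol only, so that the antigen-processing transporters Tap1 and Tap2 and the chloride channel Cftr, which are also ABC proteins, fall outside it.

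The cells were regulatory T (Treg) cells, CD4 T cells that restrain immune responses under the control of the transcription factor Foxp3. In the knockout group (cKO), 3 libraries came from Foxp3cre/+ TKTfl/fl female mice, in which Cre made from the Foxp3 gene deletes the floxed Tkt gene, encoding the pentose phosphate enzyme transketolase. In the control group (WT), 3 libraries came from Foxp3cre/+ females with no floxed allele named in the labels. All mice were C57BL/6, untreated and 7 weeks old, and cells positive for CD4, CD25 and YFP were sorted from spleen and lymph node. Foxp3 is X-linked, so that females with a single Cre allele are mosaics, and the gate on YFP selects Treg cells that use that allele. The design text calls the mice of both groups chimeric. Which exons are floxed, and whether animals were pooled for a library, is not stated. All p-values here therefore speak of the spread among the 6 libraries sequenced.

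Each library held 17180577 to 18215168 estimated reads. The targeted gene, Tkt, stood at 52.5, 44.8 and 31.9 CPM in the cKO libraries, against 126, 97.1 and 121 CPM in the WT libraries. CPM are reads scaled to a common library size and are compared here between groups, not between genes. Tkt was lower in every cKO library, but its adjusted p of 0.0516 in edgeR's quasi-likelihood test lay just above the threshold of 0.05 (log2 fold change -1.41 ± 0.19 SE). The Treg markers Foxp3 and Il2ra (the gene of CD25, on which the cells were gated) were abundant in both groups, at 620.4 ± 58.8 and 757 ± 85.7 CPM in cKO cells and at 598 ± 123 and 755 ± 109.8 CPM in WT cells (SD, n = 3 each). WT2 and cKO1 lay lowest on the first principal component, at -25.4 and -33.2, followed by cKO2 at -8.11, with the other 3 at 18.4 to 25.9. Results that rest on WT2 and cKO1 are given with and without them.

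In T cells the best known ABC transporter is P-glycoprotein, an efflux pump of the plasma membrane that expels many drugs and fluorescent dyes. Human cells make it from a single gene, whereas the mouse has a pair of neighbouring genes, Abcb1a and Abcb1b. Other members export cholesterol to lipoproteins (Abca1 and Abcg1), carry glutathione conjugates (Abcc1), carry fatty acids into peroxisomes (Abcd3) or serve heme synthesis in mitochondria (Abcb10).

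Abcb1a and Abcb1b lie beside each other in the same orientation on chromosome 5 of GRCm38, the assembly also called mm10. Abcb1a (Entrez 18671) spans 8567091 to 8748575 and Abcb1b (Entrez 18669) spans 8798147 to 8866314, with 49571 bases between them. Abcb4, which encodes the phosphatidylcholine exporter of bile, follows 27299 bases further on. The longest GENCODE coding transcript of each of the 3 genes has 28 exons and a coding length of 3828 bases. In an alignment of these coding sequences Abcb1a and Abcb1b were identical at 87.98% of the 3819 aligned positions, and Abcb1a and Abcb4 at 74.7% of 3807. This likeness bears on the counts, because a read from an identical stretch cannot be assigned to either gene. Of all windows of 100 bases in the Abcb1a transcript, 7.72% also occurred exactly in another gene's transcript, chiefly that of Abcb1b, and for windows of 50 and 150 bases the shares were 16.98% and 4.41%. The length of the reads is not stated. The coding stretch of 120 bases at which the pair differs most is shown, since reads from such stretches can tell the genes apart. It covers coding positions 2128 to 2247 of Abcb1a and 2134 to 2253 of Abcb1b, counted from 1 at the start codon, and capitals mark the 38 bases that differ.
Abcb1a coding: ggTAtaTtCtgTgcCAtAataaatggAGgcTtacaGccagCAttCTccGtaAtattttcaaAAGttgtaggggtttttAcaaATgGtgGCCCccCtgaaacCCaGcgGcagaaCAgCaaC
Abcb1b coding: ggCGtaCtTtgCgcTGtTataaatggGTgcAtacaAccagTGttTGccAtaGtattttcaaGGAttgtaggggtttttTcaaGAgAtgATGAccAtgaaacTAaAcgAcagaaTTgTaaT
At the other extreme, a run of 338 coding bases was identical in both. A stretch of 120 bases without a difference, at coding positions 1357 to 1476 of Abcb1a, show sequence from which a read could come from either gene.
shared coding: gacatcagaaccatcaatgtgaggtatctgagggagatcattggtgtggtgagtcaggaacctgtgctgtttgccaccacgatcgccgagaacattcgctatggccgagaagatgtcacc

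The proximal promoters of the pair, in contrast, were different in composition. They are shown because the cKO-to-WT values of the pair lay apart, as given below, and each runs from 250 bases before to 50 bases after the start annotated by RefSeq on GRCm38.p6, on the plus strand, at chr5:8566841-8567140 and chr5:8797897-8798196. Capitals mark matches, on either strand, to the TATA box TATAAA, the CCAAT box CCAAT, the GC box GGGCGG and the AP-1 site TGANTCA.
Abcb1a promoter: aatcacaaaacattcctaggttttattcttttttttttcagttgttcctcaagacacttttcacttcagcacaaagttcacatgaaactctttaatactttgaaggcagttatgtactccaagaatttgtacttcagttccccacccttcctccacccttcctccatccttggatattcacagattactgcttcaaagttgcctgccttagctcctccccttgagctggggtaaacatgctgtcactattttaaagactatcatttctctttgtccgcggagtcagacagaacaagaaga
Abcb1b promoter: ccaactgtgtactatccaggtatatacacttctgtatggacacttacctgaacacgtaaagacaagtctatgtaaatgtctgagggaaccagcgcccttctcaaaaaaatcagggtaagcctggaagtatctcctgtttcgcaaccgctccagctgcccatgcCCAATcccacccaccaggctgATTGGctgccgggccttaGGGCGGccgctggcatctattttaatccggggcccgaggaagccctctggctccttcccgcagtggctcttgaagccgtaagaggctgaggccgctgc
The Abcb1b window held CCAAT at -87, the same box on the minus strand at -66 and GGGCGG at -48, counted from the annotated start to the first base of the match. None of the 4 motifs matched in the Abcb1a window, which says only that these letters are not there. Among all 32851 promoter windows of this length, CCAAT occurred in 37.4%, GGGCGG in 35.7%, TATAAA in 13.6% and TGANTCA in 7.81%. G and C made up 40.3% of the Abcb1a window and 55.0% of the Abcb1b window, with 2 and 12 CG dinucleotides. The part of promoter sequence in the cKO-to-WT values of the pair was not tested.

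Abcb1a was the only ABC transporter that passed the test, and it was lower in cKO Treg cells. It stood at 20.7, 24.4 and 26.9 CPM in the cKO libraries, against 44.9, 43.8 and 40.6 CPM in the WT libraries. All 3 cKO libraries therefore lay under the lowest WT library, with no overlap between the groups. The means were 24.0 ± 3.14 CPM in cKO cells and 43.1 ± 2.21 CPM in WT cells (SD, n = 3 each), and the fitted level in cKO cells was 0.557 times that in WT cells. The log2 fold change was -0.84 ± 0.11 (SE; 95% interval -1.10 to -0.59), with an adjusted p of 0.0474 in edgeR's quasi-likelihood test. Over all genes 27 of 12887, or 0.21%, were called at an adjusted p under 0.05, and Abcb1a stood at place 27 when genes were ordered by p. The call is thus at the edge of the threshold. It held in 5 of 15 alternative settings, among them the omission of WT2 and cKO1 together, which was not planned. In none of the 6 fits that left out a single library did it hold. Their adjusted p ran from 0.0747 without WT2 to 0.223 without WT1, and their log2 fold changes from -0.93 to -0.75. Without both WT2 and cKO1, a setting chosen with the data known, the log2 fold change was -0.73 and the adjusted p was 0.0442.

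Abcb1b did not pass. It stood at 10.3, 13.6 and 11.6 CPM in the cKO libraries, against 12.1, 13.0 and 13.6 CPM in the WT libraries, and the groups overlapped. The log2 fold change was -0.12 ± 0.13 (SE; 95% interval -0.43 to 0.19; adjusted p = 0.924 in edgeR's test), an interval that does not overlap that of Abcb1a. Whether the pair differed in its response was tested on the log2 ratio of Abcb1a to Abcb1b within each library, which does not depend on library scaling. This ratio was 1.0, 0.84 and 1.22 in the cKO libraries, against 1.90, 1.75 and 1.58 in the WT libraries. The mean ratio differed by -0.72 in cKO cells (cKO minus WT), the groups did not overlap, and the two-sided exact permutation test gave p = 0.1, the smallest value that 3 libraries against 3 allow.

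Per base of transcript, Abcb1a was the more abundant gene of the pair in every library. The authors' deposited FPKM of Abcb1a was 1.70, 1.52 and 2.0 times that of Abcb1b in the cKO libraries, against 3.17, 2.85 and 2.57 times in the WT libraries. Because reads can be assigned to the wrong gene of the pair, their counts were also added. The summed level was 31.0, 38.0 and 38.5 CPM in the cKO libraries, against 57.0, 56.8 and 54.2 CPM in the WT libraries, so that the groups did not overlap for the sum either. As a single row in the edgeR fit, a choice made with the data known, the sum had a log2 fold change of -0.64 ± 0.10 (SE) and an adjusted p of 0.0664, and was not called. In bulk samples, fewer cells that express a gene and less of its RNA per cell cannot be told apart.

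**Figure D1:**
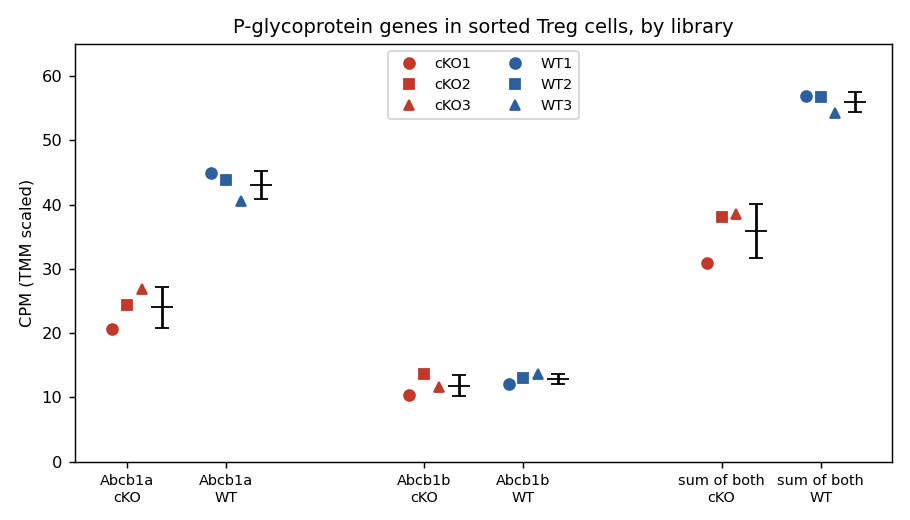
CPM of Abcb1a, of Abcb1b and of their sum in each library, with cKO libraries in red and WT libraries in blue; the bar beside each group is its mean ± SD over 3 libraries. The cKO libraries lie at 20.7 to 26.9 CPM for Abcb1a, all below the 40.6 to 44.9 CPM of the WT libraries, whereas the groups overlap for Abcb1b.

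Values of an overlapping gene and of other cell types are given beside that of Abcb1a. Rundc3b, a gene on the opposite strand whose span overlaps that of Abcb1a, stood at 12.9, 12.4 and 14.4 CPM in the cKO libraries, against 16.6, 16.98 and 16.7 CPM in the WT libraries (log2 fold change -0.34 ± 0.10 SE; adjusted p = 0.359, edgeR). It shares 0 annotated exonic bases with Abcb1a, and whether the counting used strand is not stated. The 12 Treg identity genes listed for the sort summed to 5013 to 5294 CPM in the cKO libraries and 5428 to 5873 CPM in the WT libraries, without overlap. Of the 12, 0 were called and 7 had a log2 fold change below 0, with a median of -0.07. The lowest p among them was that of Nrp1, a surface receptor of thymic Treg cells, at 188 ± 15.4 CPM in cKO and 232 ± 6.83 CPM in WT (log2 fold change -0.31 ± 0.08 SE; adjusted p = 0.321, edgeR). Ikzf2 and Tnfrsf4 were also lower in every cKO library, with -0.21 ± 0.09 and -0.31 ± 0.13 (SE). Over all genes tested, the groups did not overlap with cKO lower for 8.12% and with cKO higher for 6.06%, and 0.21% were called. These shares apply to all markers of this paragraph. Ctla4, with the most reads, had -0.57 ± 0.37, and Gpr83 had the highest value, 0.35 ± 0.18 (SE). The 7 markers of CD8 T and NK cells, which are also known to use P-glycoprotein, summed to 34.8 to 42.0 CPM in cKO and 37.6 to 42.5 CPM in WT, and 5 were tested with 0 calls. Their directions differed. Nkg7, a granule protein of cytotoxic cells, was lower in every cKO library, at 9.83, 14.1 and 11.2 CPM in the cKO libraries, against 21.4, 15.5 and 18.6 CPM in the WT libraries (log2 fold change -0.66 ± 0.17 SE; unadjusted p = 0.00594, adjusted p = 0.304, edgeR). The NK receptor gene Klrb1c had a log2 fold change of -0.60 ± 0.36 (SE), whereas Cd8a and Cd8b1, the chains of CD8, had 0.55 ± 0.31 and 0.23 ± 0.12 (SE). The 10 myeloid markers summed to 240.1 to 302 CPM in cKO and 262 to 274 CPM in WT, and 1 of them was called, Cybb, a subunit of the phagocyte oxidase, which was lower in cKO cells, at 22.7 ± 1.61 CPM in cKO and 38.9 ± 3.30 CPM in WT (adjusted p = 0.0449, edgeR). Of the 9 myeloid markers tested, however, 2 had a log2 fold change below 0 and 7 above it, with a median of 0.25. Csf1r, a macrophage receptor, stood at 9.07, 21.9 and 2.40 CPM in the cKO libraries, against 1.65, 4.25 and 1.46 CPM in the WT libraries (log2 fold change 2.19 ± 0.78 SE; unadjusted p = 0.0256, adjusted p = 0.527, edgeR). Tyrobp and Fcer1g, signalling adaptors, had log2 fold changes of 1.11 ± 0.75 and 1.03 ± 0.85 (SE), and Ctss, which held most of the reads of the list, had -0.05 ± 0.08. The 10 B cell markers summed to 44.6 to 99.9 CPM in cKO and 53.8 to 77.9 CPM in WT, with the most reads in Cd74 (log2 fold change 0.33 ± 0.36 SE). Of the 6 B cell markers tested, 0 were called and 1, Cd79b, had a log2 fold change below 0 (-0.19 ± 0.18 SE), with a median of 0.73. Bank1 and Cd79a were higher in every cKO library, with 0.92 ± 0.25 and 0.95 ± 0.46 (SE; adjusted p = 0.336 and 0.728, edgeR). The 7 stromal and endothelial markers summed to 14.7 to 19.4 CPM in cKO and 2.88 to 18.4 CPM in WT. The 7 erythroid markers summed to 199 CPM in cKO1, 3.55 to 4.03 CPM in the other cKO libraries and 0.277 to 5.77 CPM in WT. Of the markers of the 5 other cell types 0 were at 0 reads in all libraries. The part of these cells in the level of Abcb1a was not tested.

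Across the family, 28 of the 41 genes had enough reads to be tested, and 27 of these 28 were not called. In all, 1 member was called lower and 0 higher, beside 0.202% of all genes tested called lower and 0.00776% called higher. At an unadjusted p under 0.05 there were 2 members, Abcb1a and Abcc5, against 7.69% of all genes tested. The groups did not overlap for 3 of 28 members, a share near the 14.2% found over all genes tested. Of these, Abcb1a was lower in cKO (8.12% of all genes tested), and Abcc5 and Abcd4 were higher (6.06% of all genes tested). The log2 fold changes of the 27 members other than Abcb1a lay between -0.17 and 0.20, or 0.892 to 1.15 times the WT level. The median over the 28 members was 0.05, beside 0.004 over all genes tested. For 19 of the 27 the 95% interval lay within a 1.5-fold change in either direction. The 8 with a wider interval were Abca5, Abca6, Abca8b, Abcb6, Abcc3, Abcc9, Abcd2 and Abcg4, whose intervals still hold a change of that size.

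**Figure D2:**
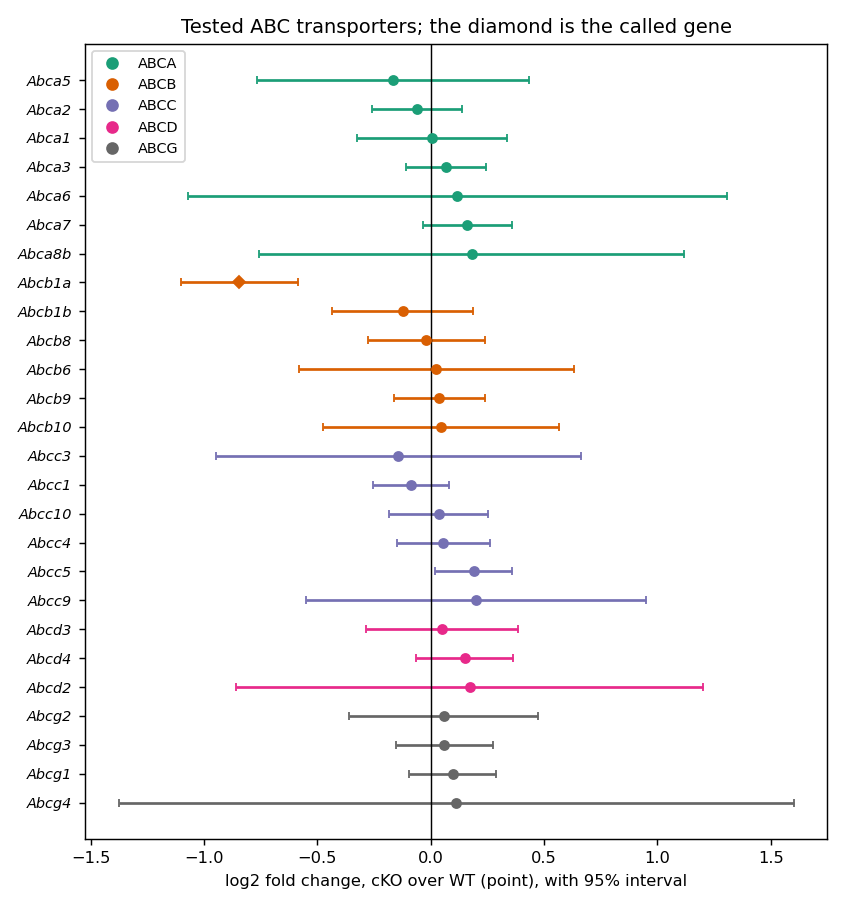
Fitted log2 fold change of cKO over WT (points) with its 95% interval for 26 tested ABC transporters, coloured by subfamily; the diamond marks the called gene. Abcb1a at -0.84 stands apart from the other 25, which lie between -0.17 and 0.20.

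The level of the genes in these cells spanned orders of magnitude. Per length, Abca7 (38.4 FPKM over all 6 libraries), Abca2 (37.3 FPKM) and Abcg1 (30.1 FPKM) were the most abundant. Abca3 averaged 16.3 FPKM and Abcc1 13.9 FPKM. Abca7 and Abca2 overlapped in their range over libraries and cannot be ordered. The FPKM summed over all 41 genes came to 262 ± 10.3 in cKO cells and 259 ± 11.7 in WT cells (SD, n = 3 each). Subfamily A contributed 103 ± 3.17 FPKM in cKO and 99.9 ± 7.40 FPKM in WT, and subfamily G contributed 46.8 ± 3.18 FPKM in cKO and 44.2 ± 2.11 FPKM in WT. Subfamily B, which holds Abcb1a, came to 32.9, 36.5 and 38.5 FPKM in the cKO libraries, against 41.5, 38.4 and 40.7 FPKM in the WT libraries, so that the highest cKO library lay just above the lowest WT library.

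**Figure D3:**
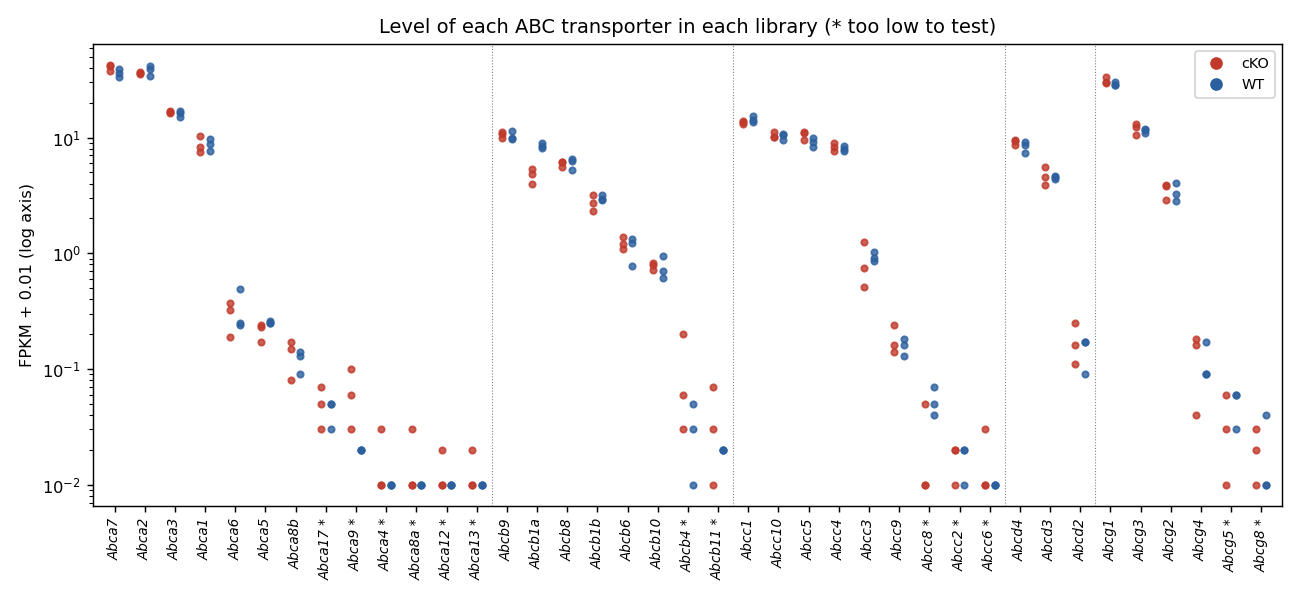
FPKM of 39 ABC transporters in each library, with 0.01 added and on a log axis, ordered within subfamilies A, B, C, D and G; red points are cKO and blue points WT libraries. Asterisks mark the 13 genes that were too low to test, and the cKO points of Abcb1a, at 3.96 to 5.39 FPKM, lie apart from its WT points at 8.11 to 9.03 FPKM.

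The other tested members of subfamily B act in organelles, and none was called. Abcb9, a peptide transporter of lysosomes, was per length the highest of the subfamily B members named here (10.4 FPKM). It stood at 37.2, 34.0 and 37.0 CPM in the cKO libraries, against 37.9, 34.1 and 33.2 CPM in the WT libraries. Abcb8, of mitochondria, averaged 15.9 ± 0.508 CPM in cKO cells and 16.1 ± 1.78 CPM in WT cells (SD, n = 3 each). Abcb10, which takes part in heme synthesis, stood at 2.91, 3.11 and 3.12 CPM in the cKO libraries, against 2.44, 2.81 and 3.60 CPM in the WT libraries. Abcb6, linked to porphyrin transport, averaged 5.30 ± 0.729 CPM in cKO and 5.21 ± 1.57 CPM in WT. Of the 100-base windows of the Abcb6 transcript, 86.6% also occur in another transcript, chiefly that of the GENCODE gene model Gm29253. Whether the counting used that model, and how such reads were assigned, is not stated. The log2 fold changes of these 4 genes lay between -0.02 and 0.04. Of the 12 iron-sulfur and heme genes listed as partners of the mitochondrial members, 0 were called, with a median log2 fold change of 0.05. The lowest p was that of Slc25a28, a mitochondrial iron importer, at 55.5 ± 1.46 CPM in cKO and 62.3 ± 5.40 CPM in WT (log2 fold change -0.17 ± 0.08 SE; adjusted p = 0.747, edgeR), and its relative Slc25a37, with the most reads, had 0.10 ± 0.07 (SE).

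Subfamily A, the lipid transporters, had 7 tested members and 0 calls, with a median log2 fold change of 0.07. Abca7, a phospholipid transporter linked to phagocytosis, had the lowest p of the subfamily. It stood at 272, 241 and 265 CPM in the cKO libraries, against 225, 222 and 248 CPM in the WT libraries, with an overlap between cKO2 and WT3 (log2 fold change 0.16 ± 0.08 SE; adjusted p = 0.772, edgeR). Abca1, the cholesterol exporter of the plasma membrane, averaged 63.1 ± 9.25 CPM in cKO and 62.9 ± 9.04 CPM in WT. Abca2, of lysosomes and endosomes, averaged 315 ± 7.75 CPM in cKO and 328 ± 27.8 CPM in WT. Abca3, known for loading surfactant lipids in lung cells, averaged 85.4 ± 3.92 CPM in cKO and 81.6 ± 4.56 CPM in WT. The other tested members were low. Abca5, with the lowest fold change, stood at 2.29, 1.54 and 2.27 CPM in the cKO libraries, against 2.10, 2.58 and 2.13 CPM in the WT libraries. Abca8b, with the highest, stood at 0.970, 0.491 and 1.07 CPM in cKO, against 0.534, 0.852 and 0.863 CPM in WT, and Abca6 averaged 0.590 ± 0.246 CPM in cKO and 0.545 ± 0.272 CPM in WT.

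Subfamily C holds the multidrug resistance proteins and the sulfonylurea receptors. Its 6 tested members had a median log2 fold change of 0.05, with 0 called. Abcc5, an exporter of cyclic nucleotides, was higher in every cKO library, at 68.0, 67.4 and 70.7 CPM in the cKO libraries, against 63.8, 57.6 and 59.4 CPM in the WT libraries. The log2 fold change was 0.19 ± 0.07 (SE; 95% interval 0.02 to 0.36), with an unadjusted p of 0.0328 and an adjusted p of 0.569 in edgeR's test, so that it did not pass. Abcc1, the glutathione conjugate and leukotriene exporter, was the highest of the subfamily per length and stood at 81.2, 81.5 and 81.5 CPM in the cKO libraries, against 80.6, 88.7 and 90.05 CPM in the WT libraries. Abcc4, another exporter of cyclic nucleotides, averaged 46.7 ± 4.23 CPM in cKO and 44.9 ± 1.33 CPM in WT, and Abcc10 averaged 33.7 ± 2.14 CPM in cKO and 32.9 ± 2.75 CPM in WT. Abcc3 varied widely among cKO libraries, at 3.72, 6.32 and 2.34 CPM in the cKO libraries, against 4.82, 4.31 and 4.56 CPM in the WT libraries, so that all WT libraries lay between the cKO extremes. Abcc9, a regulatory subunit of ATP-sensitive potassium channels, stood at 0.990, 1.14 and 1.73 CPM in cKO, against 1.30, 0.947 and 1.10 CPM in WT. Of the 10 genes listed for glutathione synthesis and conjugation, 9 were tested and 0 were called. The lowest p was that of Gsto1, a glutathione transferase, at 37.9 ± 2.96 CPM in cKO and 30.4 ± 0.386 CPM in WT (log2 fold change 0.32 ± 0.08 SE; adjusted p = 0.304, edgeR).

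Subfamily D, mostly transporters of peroxisomes, had 4 tested members and 0 calls. Abcd4, which takes part in the release of cobalamin from lysosomes, was higher in every cKO library, at 21.9, 21.9 and 22.7 CPM in the cKO libraries, against 20.1, 18.3 and 21.6 CPM in the WT libraries. The gap between the groups was narrow, with a log2 fold change of 0.15 ± 0.09 (SE) that was not called (adjusted p = 0.812, edgeR). The peroxisomal Abcd3 averaged 16.1 ± 2.94 CPM in cKO and 15.6 ± 0.611 CPM in WT. Abcd2, also of peroxisomes, was low, at 0.580, 1.36 and 0.915 CPM in cKO, against 0.962, 1.09 and 0.503 CPM in WT. Of the 10 peroxisomal partner genes listed, 0 were called, with a median log2 fold change of 0.06; Acaa1a, a thiolase of peroxisomal beta-oxidation, had the lowest p (0.20 ± 0.08 SE; adjusted p = 0.599, edgeR).

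Subfamily G had 4 tested members, all with a log2 fold change between 0.06 and 0.11 and none called. Abcg1, which exports cholesterol to high-density lipoprotein, stood at 182, 173 and 194 CPM in the cKO libraries, against 164, 184 and 165 CPM in the WT libraries, so that WT2 lay among the cKO libraries (log2 fold change 0.10 ± 0.08 SE; adjusted p = 0.899, edgeR). Abcg3, a rodent relative of Abcg2, averaged 35.8 ± 3.04 CPM in cKO and 34.4 ± 1.96 CPM in WT. Abcg2, the breast cancer resistance protein and like P-glycoprotein a drug and dye efflux pump, averaged 8.49 ± 1.09 CPM in cKO and 8.17 ± 1.44 CPM in WT, with a 95% interval of -0.36 to 0.47 on the log2 scale. Abcg4 stood at 0.640, 0.109 and 0.557 CPM in cKO, against 0.277, 0.359 and 0.563 CPM in WT. Of the 15 genes listed for sterol sensing and targets of the liver X receptor, which induces Abca1 and Abcg1, 0 were called and the median log2 fold change was 0.08. The lowest p was that of Rxra, a partner of that receptor, at 28.4 ± 0.634 CPM in cKO and 33.9 ± 5.70 CPM in WT (log2 fold change -0.26 ± 0.13 SE; adjusted p = 0.747, edgeR), and Srebf2, a sterol sensing transcription factor with the most reads, had 0.13 ± 0.12 (SE). The receptor genes themselves, Nr1h2 and Nr1h3, had log2 fold changes of -0.02 ± 0.13 and 0.83 ± 0.44 (SE; adjusted p = 0.994 and 0.781, edgeR), with Nr1h3 at 2.57 ± 1.33 CPM in cKO and 1.44 ± 0.477 CPM in WT.

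**Figure D4:**
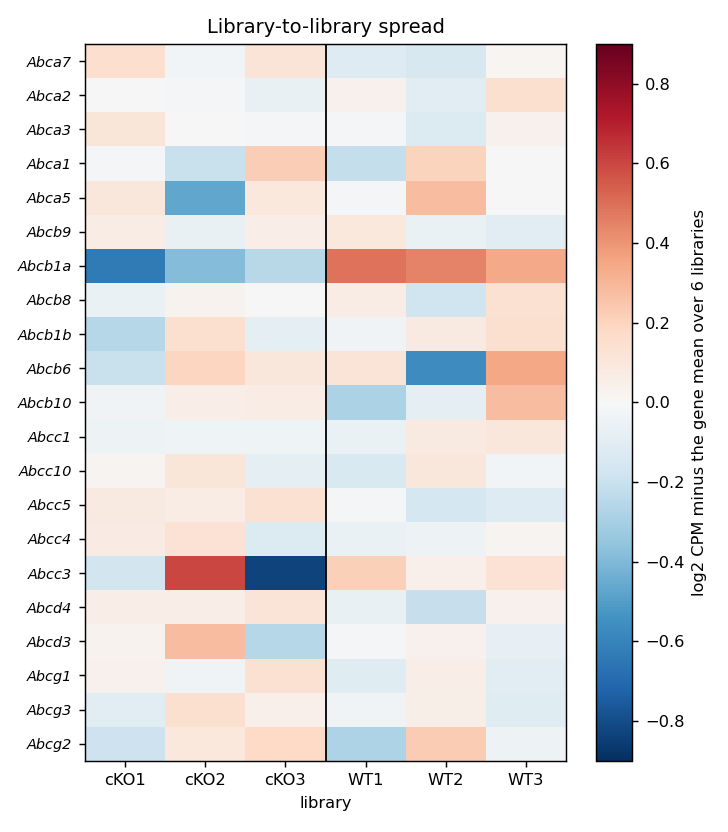
Log2 CPM of each library minus the gene's mean over the 6 libraries, for 21 tested members with at least 20 estimated reads in every library, with cKO libraries left of the line and WT libraries right of it. Abcb1a is blue in all 3 cKO libraries and red in all 3 WT libraries. The largest other deviation is 0.832 below the mean, for Abcc3 in cKO3, where cKO1 lies 0.162 below and cKO2 0.603 above.

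The 13 members too low to test were Abca4, Abca8a, Abca9, Abca12, Abca13, Abca17, Abcb4, Abcb11, Abcc2, Abcc6, Abcc8, Abcg5 and Abcg8. Their highest value in any library was 11.5 estimated reads, for Abcb4 in cKO2, and 9 of them had no library above 5. A count of 0 allows up to 3 reads, or 0.164 to 0.179 CPM in these libraries, from counting error alone. Abca4, the retinal transporter, Abca8a, Abca12, Abca13 and Abcc6 had 0 reads in all WT libraries and 1 to 2.11 reads over the cKO libraries together, which is within that limit. Abca9 was the one low member whose groups did not overlap, with 6, 10 and 3 estimated reads in the cKO libraries, against 1, 1 and 1 in the WT libraries. In a fit with no filter on low counts its unadjusted p was 0.0121 and its adjusted p 0.514 (edgeR), and none of the 13 was called. Abcc8, the other sulfonylurea receptor, had 3 estimated reads in all over the cKO libraries and 11 over the WT libraries. The hepatic and intestinal transporters Abcb11, Abcc2, Abcg5 and Abcg8 had 2 to 7 estimated reads over the cKO libraries and 2 to 5 over the WT libraries. Of the channel pores that pair with Abcc8 and Abcc9, only Kcnj11 was in the table, with too few reads to test.

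The ABC proteins outside the symbol rule, from a list of 7, had 6 tested genes and 0 calls. Tap1 and Tap2, which load peptides onto class I molecules, averaged 333 ± 13.5 and 283 ± 14.0 CPM in cKO cells and 317 ± 32.6 and 273 ± 31.5 CPM in WT cells (SD, n = 3 each). Per length both were above every gene of the rule, at 109.7 and 111 FPKM over all libraries. Their 7 listed partners in peptide loading had 0 calls and a median log2 fold change of -0.04, and Tapbp, encoding tapasin, had the lowest p among them (0.18 ± 0.12 SE; adjusted p = 0.824, edgeR), while B2m, the light chain of class I molecules and the gene with the most reads, had -0.11 ± 0.08 (SE). Abce1, Abcf1, Abcf2 and Abcf3, which act in translation and carry no membrane domain, had log2 fold changes between -0.04 and 0.08, and Abcf1 had the lowest p of the list (adjusted p = 0.940, edgeR). Cftr had 0, 1 and 1 estimated reads in the cKO libraries, against 2, 4 and 5 in the WT libraries, and was too low to test.

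Among 10 genes listed as regulators of drug efflux genes, 8 were tested and 0 were called. Ahr, the aryl hydrocarbon receptor, came closest and was lower in every cKO library, at 36.5, 35.3 and 36.2 CPM in the cKO libraries, against 50.3, 50.04 and 52.6 CPM in the WT libraries. Its log2 fold change was -0.50 ± 0.07 (SE), with an adjusted p of 0.0520 in edgeR's test. Hif1a and Runx3 were also lower in every cKO library, with -0.34 ± 0.12 and -0.26 ± 0.10 (SE; adjusted p = 0.527 and 0.591, edgeR). Over all genes tested, 8.12% were lower in this way. Of the 8 regulators tested, 4 had a log2 fold change below 0, with a median of -0.07. The forkhead factor Foxo1 stood at 548 ± 82.0 CPM in cKO and 493 ± 11.8 CPM in WT (adjusted p = 0.853, edgeR). Nr1i2 and Nr1i3, the xenobiotic receptors of liver, had at most 5 estimated reads in a library. The lists of 8 lysosomal partners and of 8 sphingosine-1-phosphate genes, of which 8 and 6 were tested, also had 0 calls, with median log2 fold changes of -0.03 and 0.12. Their lowest p-values were those of Ctsb, a lysosomal protease (-0.24 ± 0.09 SE), and S1pr4, a sphingosine-1-phosphate receptor (0.24 ± 0.10 SE), both with an adjusted p of 0.601 in edgeR's test. The lymphocyte egress receptor S1pr1, with the most reads of its list, had 0.26 ± 0.18 (SE).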

How the data were processed

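RNA of CD4+CD25+YFP+ cells was sequenced in 3 cKO and 3 WT libraries. Tools and build in the submitters' processing notes, listed there without their roles, were mm10, DESeq2 1.16.1, featureCounts 1.5.0-p3 and HISAT2 2.0.5. The authors deposited estimated counts per gene, not normalized, of which 45.4% to 46.3% per library were not whole within 0.01; no source used here says why. A second set of deposited columns holds expression values that were taken as FPKM, judged from the values. Count over value and depth gave lengths of the order of transcripts. The median was 5069 bases for Abcb1a, beside 4997 in GENCODE, and 2444 for Abcg2, beside 5717. Whether this length was constant over libraries was not tested, and for some genes it was not. Lyz2 had 538.86 estimated reads and a value of 17.43 in cKO1, against 351.58 and 3.28 in cKO3. Group means that the authors deposited were not used.

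Rounding made the estimated counts whole. Under R 4.3.3, genes passing filterByExpr of edgeR 4.0.16 (minimum count 10) were scaled by TMM and tested with the quasi-likelihood F test, group as the only term, with Benjamini-Hochberg adjustment over 12887 genes and a threshold of 0.05. Tests were two-sided. Standard errors and 95% intervals come from the F statistic. The common biological coefficient of variation was 16.7%. Alternatives used DESeq2 1.42.0, limma 3.58.1 (voom, and log2(FPKM + 0.1)), other scaling and filters, a replicate block and the omission of libraries. The code was tested on simulated counts.

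Members matched RefSeq by Entrez identifier (41 of 41), and 29 had a promoter entry. Coding sequences from GENCODE M21 (GRCm38) were aligned with MAFFT 7.526. The members, the partner lists and the tests were chosen with earlier results of these data known. Some members are not reported here by name. Named genes were otherwise all tested members, with values per library for Tkt, Abcb1a, Abcb1b and, in each subfamily, the lowest p, the highest FPKM, the largest positive and largest negative fold changes and members whose groups did not overlap, and, of each tested partner list and of the Treg list, the member with the lowest p. Members of the lists of other cell types, the other named members of the Treg list, and Hif1a and Runx3 were named after their values were seen.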

Additional observations from a re-analysis of the deposited data

How the results depend on the processing

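edgeR called 27 genes, 43 without a filter on low counts, and 0 with the replicate block (811 at an unadjusted p under 0.05). DESeq2 called 173, limma on FPKM called 0 (929 at an unadjusted p under 0.05), and without WT2 and cKO1 together, chosen with the data known, edgeR called 71. Leaving out single libraries gave 0 to 30 calls (681 to 1327 at an unadjusted p under 0.05), with 30 without WT2 and 0 otherwise. Of the ABC members, 1 was called, and 0 with library size only, limma-voom, the replicate block, limma on FPKM or any single library left out (1 or 2 members at an unadjusted p under 0.05). No other member reported by name was called in any of the 15 alternatives. For Abcb1a the adjusted p was 0.0567 with library size only, 0.0534 with limma-voom, 0.211 with the replicate block, 0.106 with limma on FPKM and 1.42e-06 with DESeq2, and its log2 fold change stayed between -0.93 and -0.73. Tkt was called in 5 of 15 alternatives, among them the omission of WT2 and cKO1 together. The correlations of same-numbered libraries in their deviations from the group means were -0.367, 0.031 and 0.344, beside 0.400 for cKO1 with WT2. With 3 libraries per group these values cannot decide whether the replicate numbers pair the samples. The cause of the differences between settings was not tested.

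In 17 members the sign changed in 33 fits, none of them called. With limma on FPKM it was -0.00082 for Abca1 and -0.10 for Abca6, and with limma-voom -0.14 for Abcg4. With 1 library, or WT2 and cKO1 together, left out, the log2 fold changes ran from -0.11 to 0.13 for Abca1, -0.13 to 0.0017 for Abca2, -0.014 to 0.10 for Abca3, -0.20 to 0.56 for Abca6 and -0.016 to 0.45 for Abca8b. They ran from -0.073 to 0.22 for Abcb10, -0.20 to 0.22 for Abcb6, -0.11 to 0.048 for Abcb8 and -0.0036 to 0.10 for Abcb9. The ranges were -0.020 to 0.098 for Abcc10, -0.59 to 0.14 for Abcc3, -0.069 to 0.36 for Abcc9 and -0.19 to 0.63 for Abcd2. For the others they were -0.092 to 0.18 for Abcd3, -0.056 to 0.30 for Abcg2, -0.0012 to 0.17 for Abcg3 and -0.33 to 0.57 for Abcg4. Without cKO1, Abcg4 did not pass the low-count filter, and at a CPM of at least 1 in 3 libraries Abca6, Abca8b, Abcd2 and Abcg4 did not pass. Depth limits these low genes and the 13 members not tested.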

Other observations

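Within 500000 bases of either end of Abcb1a on chromosome 5, 12 genes were in the table, Abcb1a included, and 11 were tested, and Abcb1a was the only one of them called by edgeR. At higher coordinates, beyond Abcb1b and Abcb4, were Crot, a carnitine acyltransferase of peroxisomes, with a log2 fold change of 0.00096 ± 0.07 (SE), Tmem243 with -0.14 ± 0.13, Dmtf1 with -0.11 ± 0.07 and the gene model Gm46901 with -0.32 ± 0.54. At lower coordinates, beyond Rundc3b, lay Slc25a40 with 0.04 ± 0.09, Dbf4 with -0.12 ± 0.20, Adam22 with 0.49 ± 0.27 and Sri with -0.13 ± 0.07. Sri encodes sorcin, a calcium-binding protein known to be amplified together with P-glycoprotein genes in drug-resistant hamster cell lines.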
